A study of Mus musculus with 5 samples.

Results

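Tanycytes are radial glia-like cells in the floor of the third ventricle, where they contact the ventricle with their cell body and blood vessels or neurons with a long process. They are known for sensing hormones and nutrients and for controlling the entry of thyroid hormone into the hypothalamus. Ependymal cells line the rest of the ventricles and carry motile cilia, whose beat is driven by dynein arms and regulated by radial spokes and a central pair of microtubules. Tanycyte-like and ependymal nuclei were examined here in single-nucleus RNA-seq (snRNA-seq) libraries, and 351 nuclei of 9505 kept (9748 deposited) were members of this population.

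A member had at least 3 unique molecular identifiers (UMIs, each standing for 1 captured RNA molecule) summed over 7 genes. These were Col23a1 (a transmembrane collagen), Sfta3-ps (a long noncoding RNA) and Tshr (the receptor of thyroid-stimulating hormone), together with 4 genes of motile cilia, Dnah12, Cfap54, Spag17 and Dnah6. Members also had at most 2 UMIs of Snap25 and Syt1 (neurons), of St18 and Mog (oligodendrocytes) and of P2ry12, Siglech and Gpr34 (microglia), and at most 1 UMI of Cga and Tshb (pituitary hormone subunits). Members were thus chosen by these measured UMI counts, so levels of the 7 genes are described without a test. Of 427 nuclei with enough UMIs, 76 were removed by at least 1 limit: 42 by the neuronal, 29 by the pituitary, 28 by the microglial and 2 by the oligodendrocyte limit. A further 98 nuclei past the limits lay just outside the threshold with 2 UMIs, and 64 members lay just inside it with 3. Members had a median of 8 and a maximum of 78 such UMIs.

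The libraries came from 5 mice of 1 sample each, and every mouse carried Tmem119-creERT2, a Cre driver induced by tamoxifen whose activity the study places largely in microglia and macrophages of the brain. In the R241E group (2 mice) the mice carried the R241E allele of Cgas, the DNA sensor cGAS, in heterozygous form, and in the WT group (3 mice) Cgas was wild type. The labels give hippocampus as tissue and microglia as cell type, whereas the study's methods name brain tissue, from which nuclei negative for NeuN (neurons) and Olig2 (oligodendrocyte lineage) were sorted to enrich microglia. The labels give no age, and by the study's methods tamoxifen was injected into young adult mice. A text on injection of H151 or DMSO into aged mice stands with every sample, but no label assigns a treatment. The study's results name heterozygous mice as controls of this experiment, while its methods and the sample titles name wild type, and the titles were followed. Genotypes were not compared, because the libraries contributed very unequally.

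Median depth of kept nuclei ranged from 2125.5 to 3364 UMIs over the libraries, and members were deeper, with a median of 4300 UMIs and 2140 genes, than the other kept nuclei, with 2604 UMIs and 1520 genes. Among kept nuclei 13 barcodes occurred in more than 1 library, and 1 of them belonged to a member.

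R241E replicate 1 held 185 members, 7.70% of its kept nuclei (exact Clopper-Pearson 95% interval 6.66 to 8.84). R241E replicate 2 held 39 (2.87%, 2.05 to 3.91), WT replicate 1 held 50 (3.26%, 2.43 to 4.27), WT replicate 2 held 30 (1.53%, 1.03 to 2.17) and WT replicate 3 held 47 (2.09%, 1.54 to 2.77). R241E replicate 1 thus supplied 52.7% of all members, and its interval lay above those of the other 4 libraries. All intervals cover counting error only.

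The label came with 5 markers, Col23a1, Sfta3-ps, Tshr, Rmst (a long noncoding RNA) and Nnat (neuronatin, an imprinted gene of endocrine and neural tissue). The first 3 belong to the rule, so their presence is a description and no independent check of the label. Of the 2 outside it, after thinning each nucleus to 1000 UMIs, Rmst was seen in 43.6% of members, 14.7% of astrocyte-gated and 0.580% of microglia-gated nuclei, and Nnat in 60.4%, 24.6% and 2.36%. At least 4 of the 5 were found in 186 members (53.0%), called marker-rich below, and all 5 in 128. Another 76 members (21.7%) had at least 5 UMIs of fibroblast genes such as Dcn, Col1a2 and Slc6a13, and 66 (18.8%) had at least 10 UMIs of astrocyte genes such as Slc1a2 and Ntsr2. The other 23 (6.55%) met none of these criteria. Each nucleus was placed in the first of these subsets that it met, in this order. The subsets were drawn after values had been seen and are described without tests. The share called marker-rich depended on the number of markers asked for, from 63.0% of members at 3 of 5 to 36.5% at all 5, and nuclei are called below by the markers they carried.

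The subsets entered the rule by different genes. Of the 76 fibroblast-marker nuclei, 74 had Col23a1, with a median of 4 UMIs, 4 had Tshr and 0 had Sfta3-ps, which allows a share of nuclei with a UMI of up to 3.95%. Such a limit covers nuclei with a UMI and not nuclei expressing the gene, and nuclei with at least 4 of the 5 markers had already been placed in the marker-rich subset. Of the 66 astrocyte-marker nuclei, 41 had Tshr and 17 had Col23a1. Marker-rich nuclei had Col23a1 in 172, Sfta3-ps in 173 and Tshr in 165 of 186, and a median of 18 rule UMIs against 4 in both other subsets. The split was unequal over libraries. Marker-rich nuclei numbered 129 and 10 in R241E replicates 1 and 2, and 20, 12 and 15 in WT replicates 1 to 3. Fibroblast-marker nuclei numbered 33 and 19 in R241E and 7, 10 and 7 in WT, and astrocyte-marker nuclei 13 and 4 in R241E and 20, 6 and 23 in WT. Marker-rich nuclei made up 5.37% of kept nuclei in R241E replicate 1 and 0.611% to 1.30% in the other 4 libraries.

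**Figure D1:**
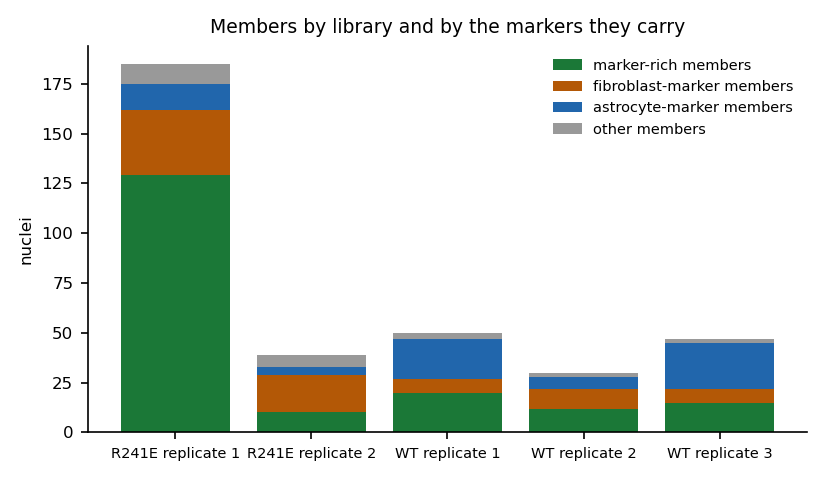
Number of member nuclei (y axis) in each library (x axis), stacked by the markers the nuclei carried. R241E replicate 1 held 185 members, 129 of them marker-rich, while in R241E replicate 2 the fibroblast-marker nuclei (19) outnumbered the marker-rich ones (10).

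Sfta3-ps (GRCm38.p6, chr12:56490428-56529420) is a noncoding gene that lies 2514 bases from Nkx2-1 (chr12:56531935-56536908), which encodes a transcription factor of the ventral hypothalamus. Its level in summed marker-rich nuclei, in UMIs per 1000000 UMIs (CPM), was 1020 and 3497 CPM in R241E replicates 1 and 2 and 844, 1012 and 773 CPM in WT replicates 1 to 3. R241E replicate 2, the library with the fewest marker-rich nuclei, was the highest and the other 4 lay close together. Tshr varied least of the 3, at 798 and 616 CPM in R241E and 865, 773 and 698 CPM in WT. Col23a1 (chr11:51289679-51583925) stood at 2209 and 1428 CPM in R241E and 1969, 3091 and 1433 CPM in WT. Of the ciliary genes of the rule, Cfap54 was seen in 121 marker-rich nuclei, Dnah6 in 67, Dnah12 in 44 and Spag17 in 8.

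Nuclei were divided by the arm of the rule they met. In 333 members the tanycyte genes (Col23a1, Sfta3-ps, Tshr) reached 3 UMIs and outnumbered the ciliary genes, in 7 the ciliary genes did so, and 11 met neither condition. Of the 333 tanycyte-arm nuclei, 183 were marker-rich, 75 fibroblast-marker, 59 astrocyte-marker and 16 other nuclei. The name of the arm therefore states which rule genes were met and not a cell type. The 7 nuclei of the ciliary arm were 2 in R241E replicate 1, 1 each in R241E replicate 2, WT replicate 1 and WT replicate 2, and 2 in WT replicate 3. With no library reaching the 5 nuclei required, neither the comparison of this arm with astrocytes nor that with the tanycyte arm could be tested.

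The 7 nuclei were not of 1 kind. Outside the rule, 50 ciliary genes were followed, and 3 of the nuclei, 2 from R241E replicate 1 and 1 from WT replicate 3, had UMIs of 35, 32 and 33 of them, with 0 to 1 UMIs summed over Col23a1, Sfta3-ps and Tshr. A nucleus from R241E replicate 2 had 18 ciliary genes. A nucleus from WT replicate 1 had 29 and was marker-rich too, with 11 UMIs of Col23a1 and 9 of Tshr. The other two did not have this profile: that from WT replicate 2 had 2 ciliary genes and 13 UMIs of macrophage markers, and that from WT replicate 3 had 10 ciliary genes and 53 UMIs of astrocyte markers. Foxj1, the regulator of motile ciliogenesis, was found in 1 of the 7, with 3 UMIs.

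Ciliary transcripts were counted in each subset. Marker-rich nuclei had a median of 16 of the 50 ciliary genes outside the rule and a median of 28 UMIs of them, and 171 of 186 had at least 5 genes. Fibroblast-marker nuclei had a median of 1 such gene (1 of 76 with at least 5), astrocyte-marker nuclei 3 (18 of 66), the other 23 members 2 (11 of 23), and 726 astrocyte-gated nuclei from the same libraries 1 (50 with at least 5). The astrocyte gate took nuclei with at least 10 UMIs summed over 4 astrocyte genes, among them Slc1a2, Gpc5 and Aqp4, fewer than 3 rule UMIs and the same limits, and its median depth was 3218 UMIs against 4471 in marker-rich nuclei. Of the 726 nuclei of the gate, 303 also had at least 3 UMIs of markers of pericytes and other mural cells. The gate is thus not made of astrocytes alone, and all levels and shares given for it include these nuclei. The part of depth in these counts of genes was not tested, and shares at equal depth are given below.

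**Figure D2:**
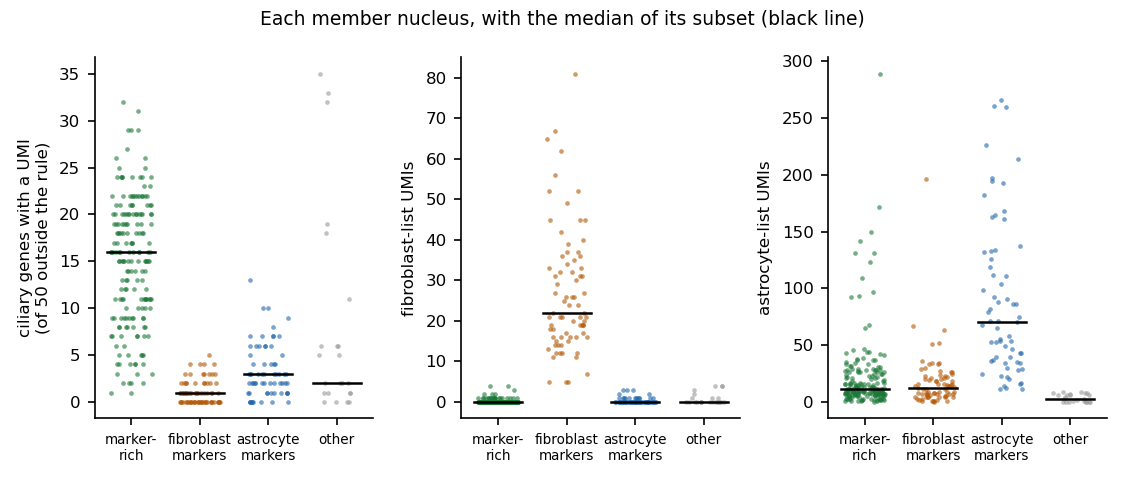
Every member nucleus as a point, by subset, for the number of ciliary genes with a UMI among 50 outside the rule, the UMIs of the fibroblast list and those of the astrocyte list (3 panels, linear axes). Black lines are medians: 16 ciliary genes in marker-rich nuclei against 1 in fibroblast-marker and 3 in astrocyte-marker nuclei, with 3 of the 23 other nuclei at 32, 33 and 35.

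To ask which genes set the population apart from astrocyte-gated nuclei of the same libraries, UMIs were summed per library and class and fitted with the library as a block (edgeR quasi-likelihood test). Of 5338 genes tested, 550 differed (10.3%) at an adjusted p under 0.05, 247 higher (4.63%) and 303 lower (5.68%) in members. With the 333 tanycyte-arm nuclei alone, 530 of 5261 differed (10.1%), 232 higher (4.41%) and 298 lower (5.66%). The split between higher and lower depended on the comparison nuclei and the libraries. An astrocyte gate without nuclei carrying mural markers, added after the data had been seen, gave 142 higher and 270 lower genes, and leaving out R241E replicate 1 gave 180 higher and 153 lower. Without the replicate block the split was 245 to 207.

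Of the 10 higher genes with the largest fold change and the same direction in every library, 3 were on the ciliary lists, Dnah11, Armc3 and Pifo. Dnah11, a heavy chain of the outer dynein arm, stood at 293 and 122 CPM in members of R241E replicates 1 and 2 and at 172, 159 and 156 CPM in WT replicates 1 to 3. In astrocyte-gated nuclei it was at 7.01 and 0 CPM in R241E and 4.32, 0 and 6.95 CPM in WT. The groups did not overlap, and the log2 fold change was 5.45 (SE 0.39, edgeR adjusted p = 0.000108). The 10 higher genes had 1 to 13 UMIs each in all astrocyte-gated nuclei together, 12 of them for Dnah11. They thus passed the filter on low counts through the members, which were chosen in part by ciliary genes. These values describe the members and are no independent check of the label. In the marker-rich subset Dnah11 was at 422 ± 39.96 CPM (SD, n = 5), with all 5 libraries between 386 and 490 CPM.

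Vwa3a and Cfap65, a protein of the ciliary axoneme, had the largest fitted values, but only 1 and 2 UMIs in all astrocyte-gated nuclei together. Their ratios, from pooled UMIs, were 208 (95% counting interval 36.6 to 8278) for Vwa3a and 160 (43.7 to 1332) for Cfap65. Of the other named genes, Armc3 (4.80, SE 0.37, edgeR adjusted p = 0.000108) and Pifo (4.66, SE 0.53, edgeR adjusted p = 0.00057), which takes part in primary cilium disassembly, were also on the ependymal list. Zbbx (5.19), Adgb (androglobin, 5.17) and Ttc21a (4.97, related to intraflagellar transport) had log2 fold changes of similar size, as did C230072F16Rik (5.84), a gene of unnamed product, and Fstl4 (5.56), a follistatin-like secreted protein. In the tanycyte-arm fit, on 333 of the same 351 members, 8 of these 10 were tested. All 8 were higher, by 4.52 to 5.80 on the log2 scale. Vwa3a and Cfap65 fell under the filter on low counts of the tanycyte-arm fit. Without R241E replicate 1, 8 of the 10 were tested and called, and Adgb and Fstl4 fell under it.

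**Figure D3:**
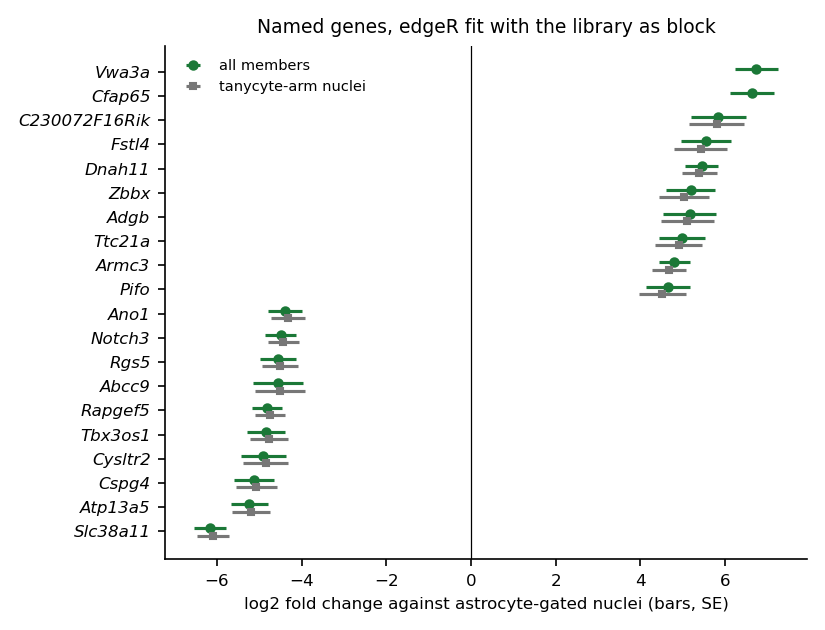
log2 fold change (x axis, bars are SE) of the 10 named genes in each direction (y axis) for all members (green circles) and tanycyte-arm nuclei (grey squares) against astrocyte-gated nuclei. The genes at the top, from 4.66 to 6.74 in all members, include 3 on the ciliary lists, and those at the bottom, from -6.16 to -4.38, include 4 on the mural list.

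By function, the lists of the cilium were described by their counts beside those of all genes, where 4.63% were higher and the median log2 fold change was 0.02. Genes near 0 in astrocytes could pass the filter on low counts only through the members, so these counts describe the genes tested and support no claim about a list. Of 19 dynein arm and assembly genes outside the rule and the gate, 4 were tested and 4 were higher (Dnah2, Dnah7b, Dnah9 and Dnah11, median 3.65). Dnah9, an outer arm heavy chain, rose by 4.43 (SE 0.61, edgeR adjusted p = 0.0016), while Dnah7b (0.84, SE 0.20) is uncertain because reads can be split among its near-identical copies, and it lost the call without R241E replicate 1 (edgeR adjusted p = 0.101), without WT replicate 1 (0.079), without WT replicate 2 (0.051) and without WT replicate 3 (0.083).

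Of 20 radial spoke and central pair genes, 6 were tested and all 6 were higher, with a median of 2.76. Spag16, a central pair protein, was at 579 and 199.7 CPM in members of R241E replicates 1 and 2, and 307, 289 and 352 CPM in WT, against 25.4 to 85.8 CPM in astrocyte-gated nuclei. The groups did not overlap (log2 fold change 2.77, SE 0.41, edgeR adjusted p = 0.00245). Ak9 (3.86), Cfap69 (3.09), Spef2 (2.75), Cfap46 (2.25) and Cfap74 (1.66) had the other log2 fold changes. Hydin, a large central pair protein, was too low to be tested in all members, but in marker-rich nuclei it was at 91.2 and 49.3 CPM in R241E and 208, 55.2 and 75.4 CPM in WT, above the 0 to 4.32 CPM of astrocyte-gated nuclei in every library.

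On the list of ependymal markers 11 of 12 tested genes were higher (median 3.29), among them Enkur, a sperm and ciliary adaptor, Cfap44 and Cfap43. Enkur was at 391 and 225.5 CPM in R241E and 188, 340 and 282.5 CPM in WT, against 8.63 to 55.6 CPM in astrocyte-gated nuclei (log2 fold change 3.53, SE 0.45, edgeR adjusted p = 0.00106). All 11 were also higher against astrocytes without mural markers and without R241E replicate 1. They were higher in the tanycyte-arm fit too, but it used 333 of the same 351 members and is no separate check. In marker-rich nuclei the ependymal list summed to 3640 to 4918 CPM over the libraries, in fibroblast-marker nuclei to 75.1 to 140 CPM and in astrocyte-gated nuclei to 168 to 385 CPM, with no overlap. Since 4 ciliary genes belong to the rule and nuclei with 3 rule UMIs were barred from the astrocyte gate, these genes share their nuclei with genes that chose the members.

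Intraflagellar transport carries cargo in all cilia, and of its 14 tested genes 2 were higher, Ift74 (0.99, SE 0.28, edgeR adjusted p = 0.049) and Ift88 (0.81, SE 0.22, edgeR adjusted p = 0.043), with a list median of 0.56. Both calls were lost in the fit with DESeq2 (adjusted p = 0.129 and 0.232) and without R241E replicate 1 (0.245 and 0.223). They were also lost without WT replicate 1 (0.068 and 0.113) and without WT replicate 2 (0.148 and 0.111), that of Ift74 without WT replicate 3 (0.102) and that of Ift88 without R241E replicate 2 (0.078).

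Of the regulators of multiciliation 1 of 4 tested was called, Rfx2 (0.89, SE 0.23, edgeR adjusted p = 0.0364), a transcription factor of ciliary genes. That call was lost whenever any 1 library was left out, with adjusted p from 0.060 to 0.284. Its relative Rfx3 was at 1670 and 1108 CPM in marker-rich nuclei of R241E and at 1146, 1601 and 999.5 CPM in WT, above the 342 to 488 CPM of astrocyte-gated nuclei in every library, but over all members its log2 fold change was 0.79 (SE 0.27), which missed the threshold (edgeR adjusted p = 0.0987). Foxj1 was at 0 to 73.9 CPM in marker-rich nuclei, with 18 UMIs in all.

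RFX factors bind a motif called the X-box, and a part of it, written GTTGCCA, was looked for on both strands in RefSeq promoters of GRCm38.p6 (250 bases before to 50 after each start). It was present in 1439 of 32851 promoters (4.38%) and in 10 of 49 promoters (20.4%) of the dynein, radial spoke and ependymal lists, in which 46 of 56 genes were matched. The intraflagellar transport list had it in 4 of 18 promoters (22.2%). In the ciliary lists and the named genes, 11 of 13 matches lay within 40 bases of the start, as did 541 of 1514 (35.7%) in all promoters. The 2 outside that distance lay 156 bases before the start of Dnah7b and 123 bases before that of Cfap44, which had a nearer match too, and neither is shown. Other matches before the start are shown for 4 genes higher in members, 5′ to 3′ on the strand of the gene, from 30 bases before the match to the start, because they show how near to the start the match lies. Capitals mark the match, which on the opposite strand reads TGGCAAC. That of Adgb is at chr10:10472400-10472439 (minus strand), 3 bases before the start, that of Pifo at chr3:106001498-106001540 (minus), 6 bases before it, the nearer of 2 in Cfap44 at chr16:44394749-44394798 (plus), 13 bases before it, and that of Cfap74, which has 2 annotated starts, at chr4:155409173-155409239 (plus), 30 bases before 1 of them.
Adgb: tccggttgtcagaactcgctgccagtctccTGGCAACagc
Pifo: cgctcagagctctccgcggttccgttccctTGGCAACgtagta
Cfap44: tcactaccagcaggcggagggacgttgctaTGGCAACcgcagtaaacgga
Cfap74: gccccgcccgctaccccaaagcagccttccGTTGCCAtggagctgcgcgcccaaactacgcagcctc
A match is a description of these letters and not a bound site. In Dnah11, Spag16 and Enkur these letters were not found in this window.

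Tanycyte and hypothalamic genes outside the rule were followed next. Rax, Lhx2 and Nkx2-1 among them were also on the list of pituicyte markers, so they do not separate tanycytes from pituicytes. Rax, a homeobox transcription factor by which tanycytes are defined in the hypothalamus, was found in 74 of 186 marker-rich nuclei (39.8%), 0 of 76 fibroblast-marker nuclei, which allows a share with a UMI of up to 3.95%, and 0 of 66 astrocyte-marker nuclei, which allows up to 4.55%. Its level in marker-rich nuclei was 206 and 98.5 CPM in the R241E libraries and 62.5, 147 and 37.7 CPM in WT, against 0 to 2.32 CPM in astrocyte-gated nuclei. The marker-rich libraries differed widely in level, but all lay above the astrocyte-gated nuclei. Every one of the 74 nuclei with Rax also had at least 5 of the 50 ciliary genes, as did 171 of all 186 marker-rich nuclei. Both sets of transcripts were thus detected under the same barcodes, and the count is near that of the whole subset.

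After each nucleus was thinned to 1000 UMIs, Rax was seen in 11.3% of marker-rich nuclei (exact interval 7.13 to 16.7), 0.277% of astrocyte-gated and 0.0580% of microglia-gated nuclei, which should lack it and had a median depth of 2690.5 UMIs. Dnah11 was seen in 30.1% of marker-rich nuclei (23.6 to 37.2), 0.415% of astrocyte-gated and 0.213% of microglia-gated nuclei. Nkx2-1, next to Sfta3-ps, was seen in 2.69% (0.878 to 6.16) of marker-rich and 0.277% (0.0335 to 0.996) of astrocyte-gated nuclei, and these intervals overlap. Six3, another hypothalamic homeobox gene, was seen in 8.60% (4.997 to 13.6) and 0.692%. Lhx2, which maintains tanycyte identity, was seen in 9.68% (5.84 to 14.9) and 2.90%. These shares are for 186 marker-rich, 723 astrocyte-gated and 5173 microglia-gated nuclei, with 3 and 63 nuclei of the gates too shallow to thin. Nuclei of all mice were pooled for them, and 129 of the 186 came from R241E replicate 1. The intervals cover counting error only and not the spread between mice. Rax and Nkx2-1 lay above all astrocyte-gated libraries in every marker-rich library. Lhx2 did not, since it had no UMI in marker-rich nuclei of R241E replicate 2 and reached 83.5 CPM in astrocyte-gated nuclei of WT replicate 3, nor did Six3. Of the list of 16 hypothalamic transcription factors 6 were tested over all members and 0 were called by edgeR, 0 had an unadjusted p under 0.05, and 0 were called by DESeq2.

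Of 9 tested tanycyte markers 4 were higher over all members and 0 were lower, with 4.63% of all genes higher. Among the 4 were Nnat, Rmst and Col25a1. Nnat and Rmst came with the label, so their calls and this count are no independent check of it. Without a call, Lhx2 (0.86) and Rgs7bp (0.73) lay above 0, and Slco1c1 (-0.73), Ptn (-0.40) and Prkcb (-0.33) below it. Nnat was at 7196 and 3131 CPM in R241E and 3160, 3572 and 2278 CPM in WT, against 459 to 845 CPM in astrocyte-gated nuclei (log2 fold change 2.56, SE 0.21, edgeR adjusted p = 0.000125). Rmst was at 1145 and 412 CPM in R241E and 770, 781 and 732 CPM in WT, against 152 to 406 CPM, just short of overlap (1.43, SE 0.30, edgeR adjusted p = 0.0147). Against astrocytes without mural markers Rmst lost the call (adjusted p = 0.085), and of the 9 markers 1, Nnat, was called higher. Gpr50, an orphan receptor of tanycytes, had no UMI in astrocyte-gated nuclei and 0 to 110 CPM in marker-rich nuclei.

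Col25a1, a collagen counted among tanycyte and pituicyte markers, was also higher (2.87, SE 0.61, edgeR adjusted p = 0.0149), but the fibroblast-marker nuclei held much of it, at 576 to 3341 CPM, and in marker-rich nuclei it was at 1080 CPM in R241E replicate 1, 110 CPM in WT replicate 2 and 0 CPM in the other 3 libraries. Vcan, a matrix proteoglycan also expressed by pituicytes, showed the opposite distribution, with 226 to 531 CPM in marker-rich nuclei of all libraries, 0 to 56.3 CPM in fibroblast-marker nuclei and 13.4 to 39.4 CPM in astrocyte-gated nuclei (3.11, SE 0.41, edgeR adjusted p = 0.00115). Over all genes, 378 of the 5338 tested had marker-rich levels above every astrocyte-gated library and 443 had them below.

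Genes of thyroid hormone signalling were followed as well. Dio2, the deiodinase that activates thyroid hormone, was at 0 to 56.6 CPM in marker-rich and 11.7 to 56.1 CPM in astrocyte-gated nuclei, ranges that overlap. Slco1c1, a thyroxine transporter, was at 24.6 to 302 CPM in marker-rich and 102 to 452 CPM in astrocyte-gated nuclei, which overlap as well (all members, -0.73, SE 0.28, edgeR adjusted p = 0.142). The receptors Thra (-0.06, SE 0.16) and Thrb (-0.00, SE 0.21) had values near 0.

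Among 10 tested imprinted genes 4 were higher, Nnat, Meg3, Plagl1 and Kcnq1ot1, with a list median of 0.56. Meg3, a maternally expressed noncoding RNA that is also abundant in neurons, was at 1128 and 438 CPM in R241E and 303, 672 and 479 CPM in WT, against 94.6 to 241.1 CPM in astrocyte-gated nuclei (1.82, SE 0.38, edgeR adjusted p = 0.0135). Neuronal markers summed to 835 to 1662 CPM in members and 479 to 735 CPM in astrocyte-gated nuclei, and that list holds Meg3. The part of neuronal RNA in this difference was not tested. The edgeR calls of Plagl1 (without WT replicate 2, adjusted p = 0.068) and Kcnq1ot1 (without WT replicate 1 or WT replicate 2, 0.056 each) depended on single libraries.

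**Figure D4:**
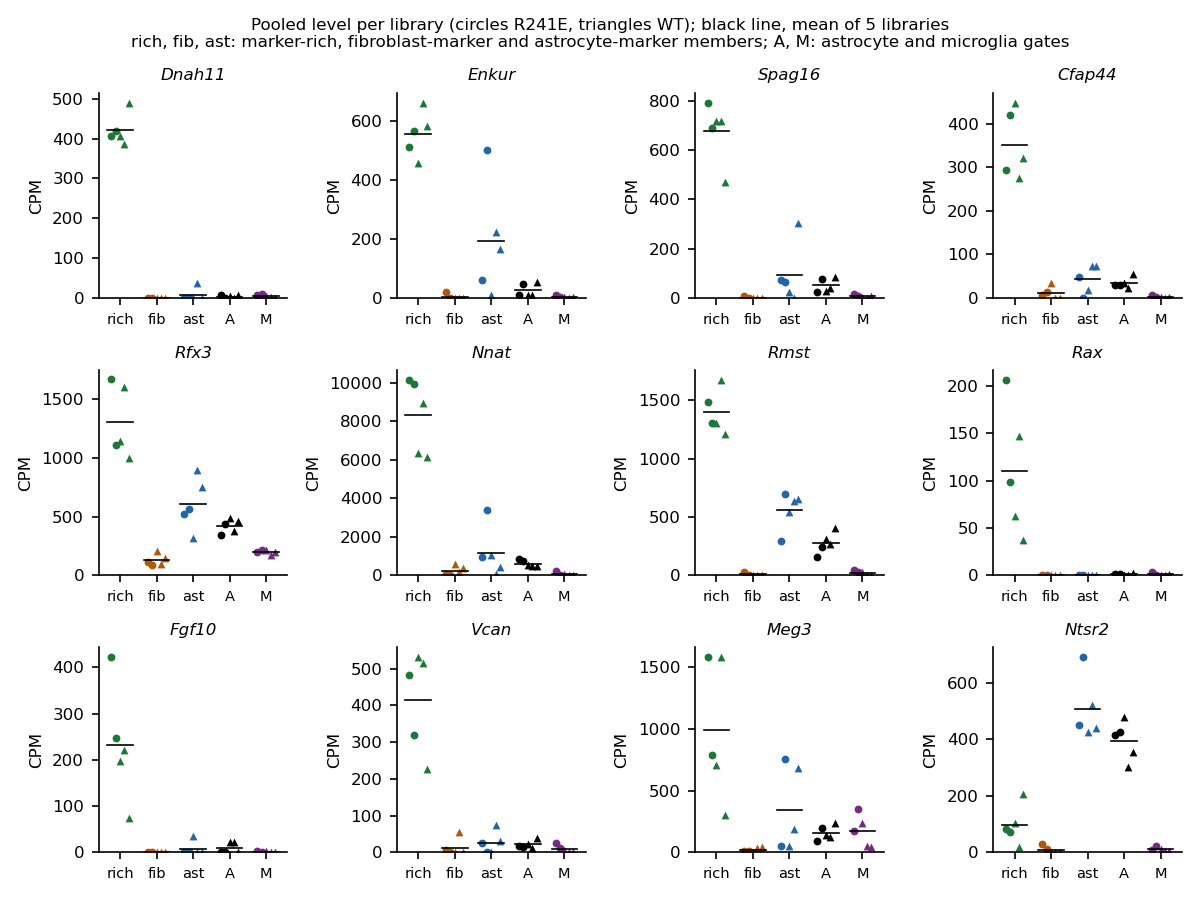
CPM (y axes, linear from 0) of 12 genes in nuclei summed per library: marker-rich, fibroblast-marker and astrocyte-marker members, astrocyte-gated (A) and microglia-gated (M) nuclei; circles are R241E, triangles WT and lines means of the 5 libraries. Dnah11, Rax and Vcan were highest in the marker-rich class in every library, Enkur reached 503 CPM in 4 astrocyte-marker nuclei of R241E replicate 2, and Ntsr2 was at 18.4 to 207 CPM in marker-rich nuclei.

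Astrocyte genes were lower but not absent. Of 8 tested, 4 were lower, with a list median of -1.03, while 5.68% of all genes tested were lower. The comparison nuclei had been chosen for 4 other genes of this list, so these tests are no independent check. The 4 lower genes were Ntsr2, a neurotensin receptor (-1.38, SE 0.29, edgeR adjusted p = 0.0134), Aldh1l1, a folate enzyme (-1.40, SE 0.32, edgeR adjusted p = 0.0219), Slc4a4, a bicarbonate transporter (-1.05, SE 0.23, edgeR adjusted p = 0.016), and Fgfr3, a growth factor receptor (-1.02, SE 0.22, edgeR adjusted p = 0.0153). Without R241E replicate 1 the calls of Aldh1l1 (adjusted p = 0.077) and Slc4a4 (0.059) were lost, likewise without WT replicate 2 (0.057 and 0.060), and that of Fgfr3 without WT replicate 1 (0.058). Slc1a3, a glutamate transporter shared by astrocytes and radial glia, was at 943 to 1453 CPM in marker-rich and 880 to 1563 CPM in astrocyte-gated nuclei, which overlap (all members, -0.38, SE 0.19, edgeR adjusted p = 0.244). The astrocyte list without the genes of the gate summed to 1490 to 2829 CPM in marker-rich nuclei and to 3694 to 4864 CPM in astrocyte-gated nuclei, which had been chosen for the other genes of that list. These ranges of the gate include its 303 nuclei with mural UMIs. Against astrocytes without mural markers 4 of 7 tested astrocyte genes were lower, with a list median of -1.41.

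Of the 10 lower genes with the largest fold change, 4 were on the list of pericytes and other mural cells (Atp13a5, Abcc9, Rgs5 and Notch3). All 7 mural markers were lower, with a median of -4.49, and the 10 named lower genes included Slc38a11 (-6.16, SE 0.38, edgeR adjusted p = 8.85e-05), Atp13a5 (-5.24), Tbx3os1 (-4.84), Rapgef5 (-4.81), Abcc9 (-4.56), Rgs5 (-4.56), Notch3 (-4.49) and Ano1 (-4.38). The remaining 2, Cspg4 and Cysltr2, had 3 UMIs each in all members, and their ratios in pooled UMIs were 37.8 (95% counting interval 12.7 to 185) and 36.0 (12.1 to 176) in favour of the astrocyte gate. Mural markers summed to 1977 to 3628 CPM in astrocyte-gated nuclei and 160 to 535 CPM in members, and 303 of the 726 astrocyte-gated nuclei had at least 3 mural UMIs. Against astrocytes without such nuclei, of the 7 markers only Pdgfrb was tested and its difference was 0.52 (SE 0.20), in the other direction and not past the threshold (edgeR adjusted p = 0.138). None of the 10 named lower genes passed the filter on low counts there. Of the higher genes named above, Dnah7b (adjusted p = 0.148), Ift74 (0.127), Ift88 (0.153), Rfx2 (0.2004) and Col25a1 (0.0667) also lost their edgeR calls in that comparison. Whether reads of the antisense gene Tbx3os1 and of Tbx3 were told apart where they overlap was not checked, as use of strand is not stated.

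Few barrier and signalling genes were called. Of the tight junction list 1 of 8 tested was higher (Magi1, a scaffold protein, 0.73, SE 0.17, edgeR adjusted p = 0.0213) and 2 were lower (Cldn10, -1.49, and Tjp1, -0.65), and each of the 3 calls was lost without at least 1 library: Magi1 without R241E replicate 1 (0.0999), WT replicate 1 (0.077) or WT replicate 2 (0.073), Cldn10 without WT replicate 1 (0.059), and Tjp1 without R241E replicate 1 (0.122), R241E replicate 2 (0.082), WT replicate 2 (0.104) or WT replicate 3 (0.103). Of 14 tested genes of Notch, FGF and Wnt signalling 2 were called, both lower (Notch3 and Fgfr3). Fgf10, a growth factor expressed by tanycytes, was too low to be tested but lay at 75.4 to 422 CPM in marker-rich nuclei, above the 0 to 23.4 CPM of astrocyte-gated nuclei. Of 7 tested genes of metabolite and nutrient sensing 1 was lower, the potassium channel Kcnj10 (-1.18, SE 0.30, edgeR adjusted p = 0.034), a call lost without R241E replicate 1 (0.098), R241E replicate 2 (0.066), WT replicate 1 (0.051) or WT replicate 2 (0.093).

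Markers of other cells that the sort could leave were summed as well. In marker-rich nuclei fibroblast markers summed to 0 to 246 CPM, with Dcn and Slc6a13 at 0, against 5152 to 6644 CPM in fibroblast-marker nuclei. Pituitary hormone markers in marker-rich nuclei summed to 0 to 24.6 CPM, with Prl and Gh at 0 (Cga and Tshb were limited by the rule). Choroid plexus markers summed to 24.6 to 129 CPM in the same nuclei. Microglial markers other than the 3 that the rule limited summed to 181 to 313 CPM in marker-rich and 94.95 to 271 CPM in astrocyte-gated nuclei, against 5158 to 5870 CPM in microglia-gated nuclei, which had been chosen for the other 3, and Cx3cr1, a microglial chemokine receptor, was called higher in members (1.05, SE 0.28, edgeR adjusted p = 0.0419). That call was lost with DESeq2 (adjusted p = 0.128), without R241E replicate 1 (0.220) and without WT replicates 1, 2 or 3 (0.118, 0.081 and 0.085). Genes of antigen presentation and interferon response summed to 261 to 1231 CPM in marker-rich and 199 to 1222 CPM in astrocyte-gated nuclei, and of 5 tested over all members 0 were called by edgeR, 1 had an unadjusted p under 0.05 (Ifi27, 0.59, SE 0.22), and 0 were called by DESeq2.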

How the data were processed

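Deposited values were raw counts of UMIs for each gene in each nucleus, made by the authors with Cell Ranger 7.0.0 and the mm10 build from 10x Genomics 3′ libraries. Use of intronic reads and strand is not given in the sources used here.

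The cut-offs of the study's methods were applied (200 or more but under 4500 genes, below 10000 UMIs, below 5% mitochondrial UMIs). These upper limits were the only treatment of doublets. Members were taken by the rule given above, without clustering, from all 5 libraries. Members and gene lists were chosen with earlier results of these data known. The mouse was the replicate, so UMIs of all nuclei of a class were added up within each library, for comparisons in which every library held at least 5 nuclei of each class. The main test was edgeR 4.0.16 (R 4.3.3) with TMM normalization, filterByExpr, the quasi-likelihood test and Benjamini-Hochberg adjustment over all genes tested, with the library as a block because both classes came from the same mouse. The 20 genes of the rule, its limits and the astrocyte gate were left out of the fit. The SE given with an edgeR log2 fold change is its absolute value divided by the square root of the quasi-likelihood F. It is thus derived from the test and is no separate estimate of error. Named genes were those of the lists and, in each direction, the 10 with the largest log2 fold change among those called, with at least 20 UMIs in the higher class and the same direction in every library. The fit was tested on simulated counts with 200 genes changed 4-fold: of 146 that passed the filter 142 (97.3%) were recovered in the comparison of all members (5324 genes), with 7 false calls. Alternatives were DESeq2 1.42.0, other filters, thinning, other gates and leaving out each library. Genes of the microglia gate were P2ry12, Siglech and Gpr34 (at least 3 UMIs). The table of promoters was that of RefSeq for GRCm38.p6, the assembly of mm10. The intervals are exact Clopper-Pearson intervals at 95%. Results on some items are not reported here.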

Additional observations from a re-analysis of the deposited data

How the results depend on the processing

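The number of genes that differed between all members and astrocyte-gated nuclei was 550, and between tanycyte-arm and astrocyte-gated nuclei 530. Without the filter on low counts it was 1499 and 1431, and after thinning to 1000 UMIs, which left 1152 and 1142 genes to test, 184 and 185. Leaving out 1 library at a time gave 333 to 555 and 297 to 538, the lowest without R241E replicate 1 (333 and 297). Fits without the library as a replicate block gave 452 and 438 calls. DESeq2 (500 and 473) and astrocytes without mural markers (412 and 407) stayed within 1.5-fold. Requiring 10 nuclei per library and class removed no library and so repeated the main fit. Every library held at least 30 members, 27 tanycyte-arm nuclei and 54 astrocyte-gated nuclei. Without the block the edgeR calls of Col25a1, Cx3cr1, Kcnq1ot1, Rfx2, Slc4a4 and Tjp1 were lost, and with DESeq2 those of Cx3cr1, Dnah7b, Ift74, Ift88, Rfx2 and Tjp1. Of 57 genes followed over these settings, 606 of 679 values kept direction and call, 72 lost the call and 1 reversed, Pdgfrb at 0.52 against astrocytes without mural markers. The 606 include 57 from the setting of 10 nuclei, which could not change. Genes under the filter on low counts in a setting were left out, so 20 were followed after thinning and 37 against astrocytes without mural markers. Of 258 list medians 27 moved by more than the spread between libraries. At 5 rule UMIs the share of members was 6.08% and 1.84% in R241E replicates 1 and 2 and 2.02%, 0.967% and 1.11% in WT replicates 1 to 3, and with nuclei thinned before the rule 4.73%, 1.60%, 1.47%, 0.625% and 0.619%. With no limits it was 9.70% in R241E replicate 1. Members with a UMI were 43.6% for Rmst and 60.4% for Nnat after thinning and 65.5% and 70.1% before it. Marker-rich nuclei were 63.0% of members at 3 of the 5 markers, 36.5% with all 5, both chosen after seeing the data, and 53.1% after thinning. The causes of these shifts were not tested, beyond the number of genes tested.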

Other observations

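Among marker-rich nuclei Col25a1 separated a smaller set, noticed in the data and described without a test. At least 3 UMIs of it were present in 26 of 186 nuclei, 25 of them from R241E replicate 1 and 1 from WT replicate 2, and 152 nuclei had none. Within R241E replicate 1 the 25 nuclei were compared with the 98 that had no Col25a1, at median depths of 5183 and 4594 UMIs. All had been chosen for at least 4 of the 5 markers. Sfta3-ps was at 1507 and 886 CPM, Rmst at 2120 and 1323 CPM, Tshr at 832 and 794 CPM, Rax at 236 and 196 CPM, and the median number of ciliary genes was 15 and 16. They differed in Il1rapl2 (1704 against 36.6 CPM), Meg3 (4860 against 755 CPM) and its neighbour Rian (612 against 79.6 CPM), which were higher with Col25a1, and in Slc7a11, the cystine transporter (23.6 against 686 CPM), the GABA receptor subunit gene Gabrb1 (7.85 against 557 CPM) and Luzp2 (23.6 against 510 CPM), which were lower. Scn7a, another pituicyte marker, was at 196 against 4.30 CPM but in 3 of the 25 nuclei. These are values from 1 mouse.

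Outside all lists, marker-rich nuclei were high in Slit2, an axon guidance ligand, at 4986 and 5074 CPM in R241E and 4950, 5538 and 2131 CPM in WT, against 63.5 to 542 CPM in astrocyte-gated nuclei. Prr16 was at 1636 to 2022 CPM against 130.3 to 186 CPM, Agbl4, a tubulin deglutamylase, at 999.5 to 2326 CPM against 94.6 to 181 CPM, and 6330403K07Rik at 1395 to 3882 CPM against 38.8 to 95.04 CPM. These genes were chosen after their values were seen. After thinning, Slit2 was seen in 90.3% and Agbl4 in 81.7% of marker-rich nuclei, 11.3% and 8.44% of astrocyte-gated nuclei and 0.638% and 0.967% of microglia-gated nuclei.

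The 29 nuclei that the pituitary limit removed came from R241E replicate 1 alone. All 29 had Tshr, with a median of 6 UMIs, and 27 had Rmst, with a median of 9, while 1 had Col23a1 and 0 had Sfta3-ps, which allows a share of nuclei with a UMI of up to 10.3%. Nnat was found in 15 of the 29, Cfap54 in 12 and Rax in 4. Chga, a protein of secretory granules, was present in all 29 with a median of 12 UMIs, and Tshb in 15. R241E replicate 1 therefore held both the largest share of marker-rich nuclei and all nuclei removed by the pituitary limit.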
